A study of Arabidopsis thaliana with 9 samples.

Results

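The Aux/IAA, ARF and TIR1/AFB genes encode the nuclear auxin response of plants, and 45 of them were followed here: 25 Aux/IAA repressors, 15 ARF transcription factors and 5 TIR1/AFB receptors. They were chosen by locus from family membership, with earlier results of these data known, and all 45 were among the 25199 loci of the table. They are not the whole of these families, and AFB4 is among the loci left out. Transcript levels came from RNA sequencing of whole Arabidopsis thaliana seedlings, 7 days old and untreated, with 3 biological replicates per group. The groups were a line that over-expresses RAV1, the mutant bes1-D, and the wild type, and every sample was labelled with the Enkheim (En2) background. RAV1 is a DNA-binding protein that joins an AP2 and a B3 domain. The labels name neither the promoter behind its over-expression nor the number of independent lines. The bes1-D mutation is a gain of function known to stabilise BES1, a transcription factor of the brassinosteroid pathway.

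Auxin is known to act by removing repressors. The TIR1/AFB F-box proteins bind auxin together with an Aux/IAA protein and mark that Aux/IAA for breakdown. This frees ARF proteins, which bind DNA and either activate or repress their targets. Many Aux/IAA genes are themselves switched on by auxin, which makes their transcripts a common readout of the response.

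Levels are given in FPKM, a unit that scales fragments for transcript length and for the mapped fragments of the library and can be compared between genes. How the deposited values were scaled between libraries is not stated. Values for single libraries run from replicate 1 to replicate 3 throughout. Differences are on the log2(FPKM + 1) scale, which understates the change of genes near or under 1 FPKM, and a gene was called at an adjusted p under 0.05 in limma over all 19740 loci tested. Of the 45 genes, 42 were tested; IAA5, IAA6 and IAA29 stayed under 1 FPKM in too many libraries. The labelled over-expression was seen in all 3 libraries: RAV1 averaged 1082 ± 335 FPKM in RAV1 over-expression, 48.5 ± 13.4 in bes1-D and 84.1 ± 13.9 in En2 wild type (SD, n = 3 each), though FPKM does not separate an introduced copy from the native gene. BES1 averaged 62.2 ± 10.6 FPKM in RAV1 over-expression, 154 ± 25.2 in bes1-D and 108 ± 13.1 in En2 wild type; a mutation that stabilises the protein is not checked by its transcript. Libraries of RAV1 over-expression differed in seed storage and late embryo transcripts, whose 8 marker genes summed to 413, 123 and 1569 FPKM in its 3 libraries, against 26.8, 21.9 and 35.3 in bes1-D and 32.9, 24.3 and 17.3 in En2 wild type. All 6 of these that were tested were higher in RAV1 over-expressing seedlings than in En2 wild type, and CRU2, a seed storage protein gene, was listed at 0 in all En2 wild-type libraries. The 6 marker genes of green tissue summed to between 18858 and 26287 FPKM in RAV1 over-expression, between 39711 and 43169.7 in bes1-D and between 36249 and 38137 in En2 wild type, with all 6 called lower in RAV1 over-expression as deposited. The 13 root markers summed to 112, 115 and 106 FPKM in RAV1 over-expression libraries, 73.9, 64.1 and 67.8 in bes1-D and 111, 112 and 106 in En2 wild type. Single root markers moved both ways in RAV1 over-expression against En2 wild type, with 38.5% called, beside 23% of all loci. EXPA7, SHR and SCR were called higher, and PHT1;1 and NRT2.1 lower. The calls of SHR and SCR were lost after either rescaling, and that of NRT2.1 in 2 of 16 alternatives. Of 9 circadian clock genes limma called 4 higher and 1 lower in RAV1 over-expression against En2 wild type. The shares over all loci were 15% and 8.01%. In bes1-D 1 was called higher, beside 2.19% of all loci. Against bes1-D, 2 were higher and 1 lower in RAV1 over-expression, beside 28% and 10.6% of all loci. The calls of PRR5 and LUX against En2 wild type were lost after either rescaling. That of PRR7 in bes1-D was lost in 10 of 17 alternatives. The evening gene TOC1 measured 42.6, 34.4 and 50.1 FPKM in the RAV1 over-expression libraries, 27.5, 30.4 and 24.1 in the bes1-D libraries and 21.3, 17.4 and 18.4 in the En2 wild-type libraries (log2 difference 1.10, SE 0.14, adjusted p = 0.000914 against En2 wild type). In such whole-seedling samples a smaller share of a tissue and less RNA per cell cannot be told apart. The part that these markers and clock genes play in the values below was not tested.

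In RAV1 over-expression 9 of the 42 tested auxin signalling genes were higher than in En2 wild type and 3 were lower. Together these are 28.6% of the genes tested, beside 23% of all loci (15% higher and 8.01% lower), so the share is near the background. The higher genes were the receptor AFB5, the repressors IAA9, IAA11, IAA28 and IAA31, and the factors ARF1, ARF2, ARF4 and ARF5. The lower genes were IAA12, IAA26 and IAA27. The number of higher genes was 5 without RAV1 over-expression replicate 1, 4 without its replicate 3 (the library with the highest seed markers) and 5 after quantile normalization, and the number of lower genes dropped to 1 when En2 wild type replicate 2 or 3 was left out. The groups did not overlap in 21 of the 42 genes, beside 46.8% of all loci. IAA9, IAA11, IAA27, ARF2 and ARF5 kept their call in all 17 alternative analyses.

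In bes1-D 2 of the 42 genes were lower than in En2 wild type, IAA26 and IAA16, and limma called 0 higher. That is 4.76% of the genes tested, beside 7.96% of all loci (2.19% higher and 5.77% lower). At an unadjusted p under 0.05, 2 genes were higher (IAA9 and IAA18) and 6 lower. The groups did not overlap in 9 of the 42, beside 29.5% of all loci. IAA9 was called higher in bes1-D once the libraries were rescaled, by trimmed means or by quantiles.

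Set against bes1-D, RAV1 over-expression had 15 of the 42 genes higher and 2 lower, 40.5% of those tested, beside 38.5% of all loci (28% higher and 10.6% lower). This comparison moved with the scaling of the libraries: its median over all loci was 0.19 as deposited and 0.04 after trimmed-mean scaling, a shift of -0.15 on the log2 scale. After that scaling 7 genes were higher and 6 lower, and after quantile normalization 9 and 6. The 9 genes called both as deposited and after trimmed-mean scaling were IAA2, IAA10, IAA11, IAA28, IAA31, ARF2 and ARF5, all higher in RAV1 over-expression, and IAA12 and IAA27, both lower. The number of lower genes was 1 without RAV1 over-expression replicates 1 or 3 or bes1-D replicates 2 or 3, and 4 without RAV1 over-expression replicate 2 or bes1-D replicate 1. The groups did not overlap in 25 of the 42, beside 51.3% of all loci. The median log2 difference of the 42 genes was 0.14 in RAV1 over-expression against En2 wild type, -0.06 in bes1-D against En2 wild type and 0.24 in RAV1 over-expression against bes1-D, beside 0.09, -0.06 and 0.19 over all loci. Over all loci RAV1 over-expression had 2960 higher and 1581 lower than En2 wild type as deposited, but 1949 and 2116 after trimmed-mean scaling. The same counts were 433 and 1139, then 604 and 748, for bes1-D against En2 wild type, and 5520 and 2084, then 2627 and 2949, for RAV1 over-expression against bes1-D. The 3 comparisons share libraries, so their values are given side by side and are not independent of each other.

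**Figure D1:**
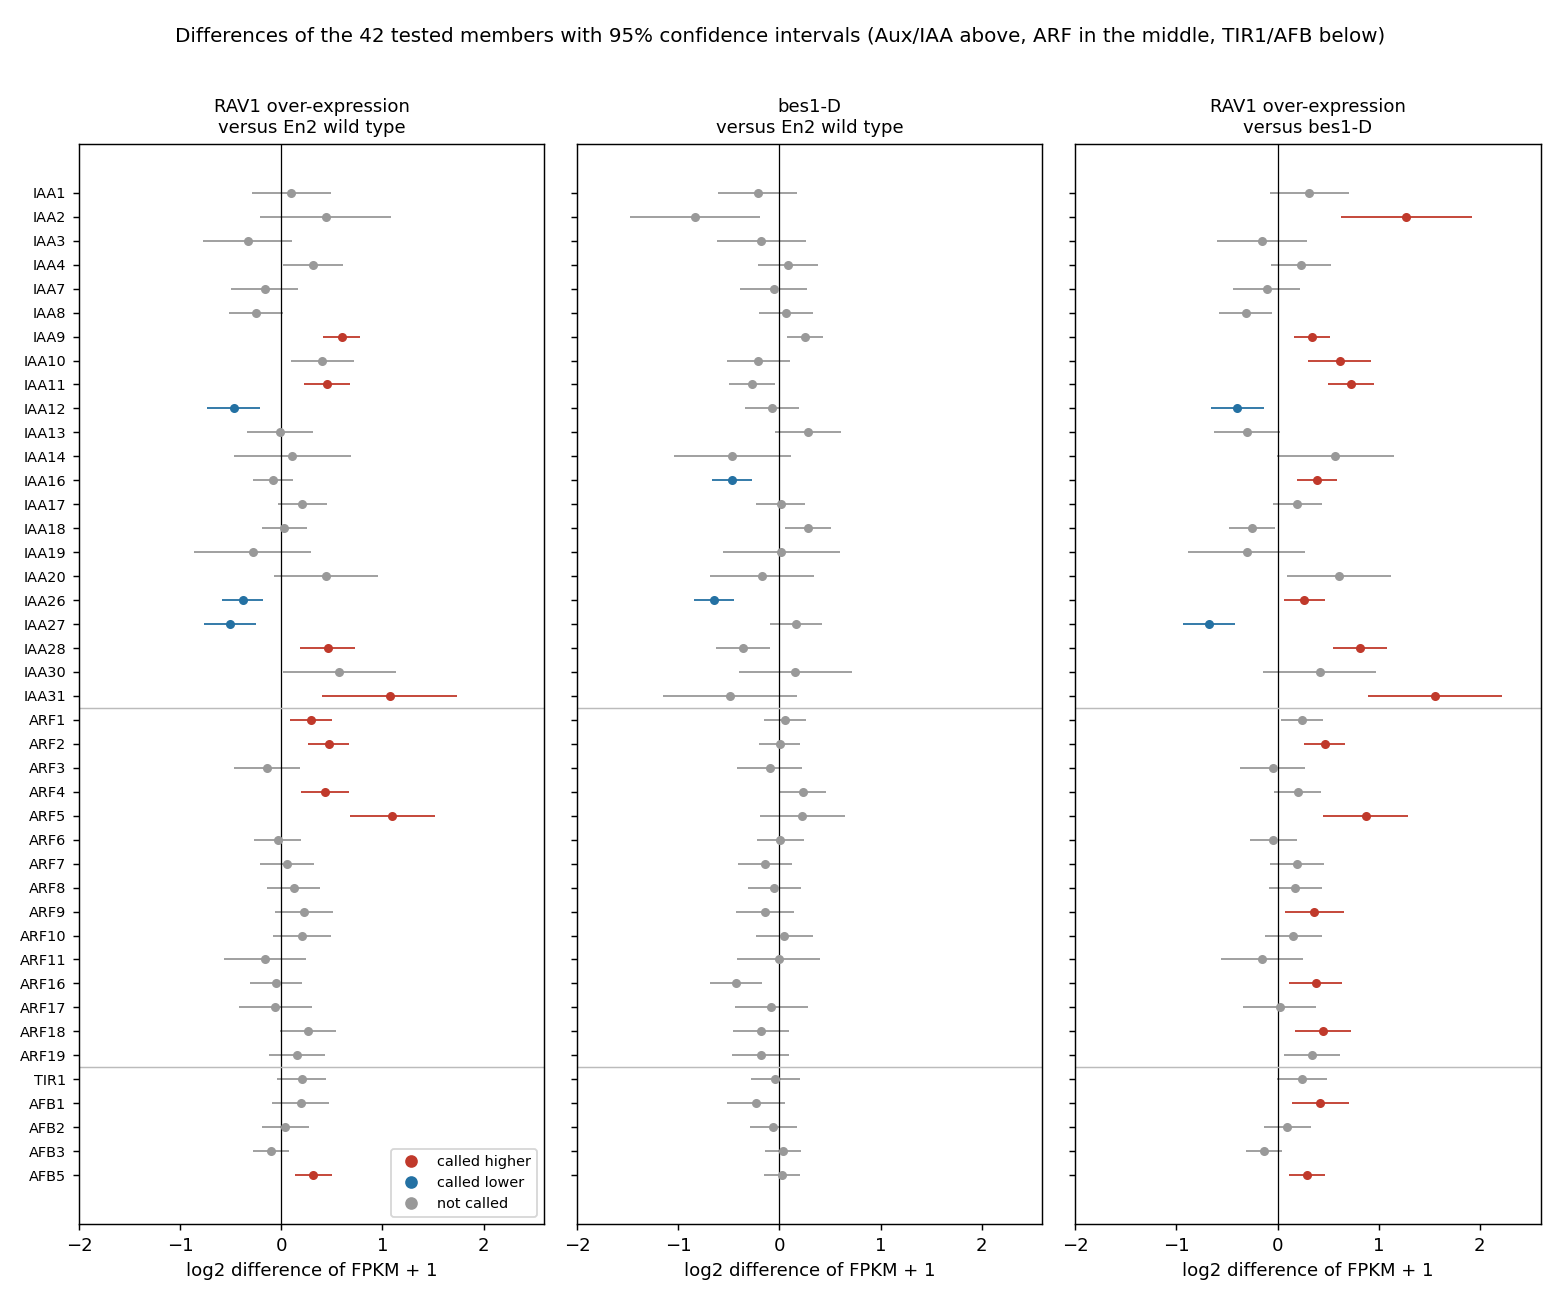
Log2 differences of FPKM + 1 (x axes) for the 42 tested genes (rows, Aux/IAA above, ARF in the middle, TIR1/AFB below) in the 3 comparisons, with 95% confidence intervals not adjusted over genes. Red points were called higher, blue points lower and grey points not called: 9 and 3 in RAV1 over-expression versus En2 wild type, 0 and 2 in bes1-D versus En2 wild type, and 15 and 2 in RAV1 over-expression versus bes1-D.

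TIR1, AFB1, AFB2, AFB3 and AFB5 are F-box subunits of the ligase that marks Aux/IAA proteins. Their summed level was 175, 169 and 181 FPKM in the RAV1 over-expression libraries, 161, 153 and 139.7 in bes1-D and 161, 161 and 149 in En2 wild type. As deposited every RAV1 over-expression library lay above every other library in this sum. After trimmed-mean scaling the sums were 165, 160.2 and 169 FPKM in the RAV1 over-expression libraries, 173, 161 and 147 in bes1-D and 161, 163 and 149.7 in En2 wild type, and all groups overlapped. AFB5 (AT5G49980, chromosome 5, 20333897 to 20336671, minus strand, TAIR10.1), the receptor known for its role in the response to the synthetic auxin picloram, measured 40.01, 38.6 and 44 FPKM in the RAV1 over-expression libraries, 34, 32.8 and 32.6 in the bes1-D libraries and 32.7, 33.6 and 31.2 in the En2 wild-type libraries. It was higher in RAV1 over-expressing seedlings than in En2 wild type, with no overlap between the groups (log2 difference 0.32, SE 0.08, adjusted p = 0.0194), and than in bes1-D (log2 difference 0.29, SE 0.08, adjusted p = 0.018). Both calls were lost after either rescaling. The first was also lost without RAV1 over-expression replicates 1 or 3 or En2 wild type replicates 1 or 3 (adjusted p from 0.0171 to 0.0763 over the alternatives), and the second without RAV1 over-expression replicate 3 or bes1-D replicate 2 (from 0.0164 to 0.271). In bes1-D AFB5 differed from En2 wild type by 0.03 on the log2 scale (95% interval -0.15 to 0.21).

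AFB1 measured 38.5, 35.6 and 35.8 FPKM in the RAV1 over-expression libraries, 32.7, 25.6 and 23.6 in the bes1-D libraries and 34.8, 33.5 and 28 in the En2 wild-type libraries. It was higher in RAV1 over-expressing seedlings than in bes1-D (log2 difference 0.42, SE 0.13, adjusted p = 0.0251), with no overlap, but not after either rescaling or without RAV1 over-expression replicates 1 or 3 or bes1-D replicates 2 or 3 (adjusted p from 0.0065 to 0.168 over the alternatives). TIR1, the founding receptor, measured 47.5, 45.6 and 47.1 FPKM in the RAV1 over-expression libraries, 45.2, 41.3 and 32.8 in the bes1-D libraries and 40.8, 40.2 and 40.6 in the En2 wild-type libraries and was not called as deposited, nor were AFB2 and AFB3, which lay between 21.3 and 31.8 FPKM in all 9 libraries. Without bes1-D replicate 1, TIR1 was called higher in RAV1 over-expression against bes1-D (0.34, adjusted p = 0.0337; from 0.0337 to 0.66 over the alternatives). AFB3 was called lower there after trimmed-mean scaling (-0.30, adjusted p = 0.0166) and after quantile normalization (from 0.0149 to 0.416 over the alternatives). The exons of AFB1 and AFB3 overlap annotated genes on the opposite strand by up to 423 and 638 bases, and whether counting used strand is not stated, so their levels may include reads of those genes. One such gene, AT4G03180, overlaps AFB1 by 51 bases. It too was called higher in RAV1 over-expression against bes1-D (log2 difference 0.38, adjusted p = 0.0297). Of the 45 genes, 12 have exons that overlap another gene.

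The receptors also differ in a sequence that the choice of genes did not use, the site for microRNA393. These sequences are shown because AFB5, alone among the 5 receptors followed here, had no match within the limit used. AFB4, outside the 45 genes, was not searched. The mature microRNA of the reference genome (TAIR10.1, annotated by RefSeq) is given 5′ to 3′ with its seed, bases 2 to 8, in capitals, and below it the best matching coding stretch of each receptor, in which capitals mark bases that differ from its perfect complement, G opposite U included.
miR393a-5p: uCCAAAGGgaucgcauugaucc
TIR1: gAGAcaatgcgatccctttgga
AFB1: gAGAcCatgcgatccctttgga
AFB2: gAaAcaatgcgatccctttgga
AFB3: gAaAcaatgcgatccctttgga
The stretches of AFB2 and AFB3 had 2 mismatches, that of TIR1 had 3 and that of AFB1 had 4. AFB5 held no stretch with 4 or fewer mismatches. The En2 background was read against this reference, and microRNA levels were not measured.

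The Aux/IAA repressors spanned the widest range of levels. IAA9 was the most abundant and the highest of all 45 genes, with IAA8, IAA16, IAA7, IAA17 and IAA2 between 28 and 132 FPKM in every library. Their summed level was 1094, 1159 and 1029 FPKM in the RAV1 over-expression libraries, 884, 859 and 1030.3 in bes1-D and 914, 966 and 965 in En2 wild type. RAV1 over-expression replicate 3 lay just under bes1-D replicate 3, so these groups overlapped, while as deposited every RAV1 over-expression library was above every En2 wild-type library. After trimmed-mean scaling the sums were 1027, 1102 and 958 FPKM in the RAV1 over-expression libraries, 946, 903 and 1083 in bes1-D and 913, 979 and 972 in En2 wild type, and the groups overlapped. Without IAA9 the deposited sums were 729.7, 812 and 649 FPKM in the RAV1 over-expression libraries, 606, 586 and 719.8 in bes1-D and 671, 729 and 725 in En2 wild type, which overlapped too. In the comparison of RAV1 over-expression with En2 wild type the 22 tested Aux/IAA genes had a median log2 difference of 0.10, beside 0.09 over all loci.

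Most Aux/IAA proteins are recognised by the receptors through a short degron with the core Gly-Trp-Pro-Pro. Codons for that core (searched in frame in the coding sequence, with every synonymous codon) were present in 22 of the 25 genes and absent from IAA20, IAA30 and IAA31. Those of the 9 genes called in at least 1 comparison are shown because the degron is the known link between auxin and the repressor, with the core codons in capitals and 9 coding bases on either side (TAIR10.1, coding strand).
IAA2: caaatcgttGGTTGGCCACCAgtgagatct
IAA9: caaattgtcGGTTGGCCTCCAgtgagatcc
IAA10: gttgctgtaGGTTGGCCGCCTctacggact
IAA11: caagttgtgGGATGGCCACCAataaggact
IAA12: caagtggtaGGATGGCCACCAattgggtta
IAA16: caagttgtgGGATGGCCACCGgtacgatct
IAA26: ccagtggtgGGTTGGCCTCCGgttcgttcg
IAA27: caagtggtgGGATGGCCACCAataagatca
IAA28: ccagtggtgGGATGGCCGCCGgtgagatca
Both repressors that fell in bes1-D and all 3 that fell in RAV1 over-expression carried the codons, as did 3 of the 4 that rose there. The exception was IAA31.

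IAA9 (AT5G65670, chromosome 5, 26253408 to 26256544, plus strand) measured 364, 348 and 380.3 FPKM in the RAV1 over-expression libraries, 278, 273 and 311 in the bes1-D libraries and 243, 238 and 240.3 in the En2 wild-type libraries. It was highest in RAV1 over-expression and lowest in En2 wild type, and none of the 3 groups overlapped. In RAV1 over-expression it was 1.52-fold its En2 wild-type level (log2 difference 0.60, SE 0.08, adjusted p = 0.00115), a call kept in all 17 alternatives. Against bes1-D the line was 1.27-fold higher (log2 difference 0.34, SE 0.08, adjusted p = 0.00908), but not after trimmed-mean scaling (adjusted p from 0.00322 to 0.129 over the alternatives). In bes1-D IAA9 had a log2 difference of 0.25, adjusted p = 0.087, short of the test.

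IAA11 (AT4G28640, chromosome 4, 14142063 to 14143969, plus strand) measured 23.9, 22.4 and 25.2 FPKM in the RAV1 over-expression libraries, 13.9, 15.7 and 12.6 in the bes1-D libraries and 16.5, 16.6 and 18.3 in the En2 wild-type libraries. The groups did not overlap: RAV1 over-expression was highest and bes1-D lowest. It rose in RAV1 over-expression (log2 difference 0.46, SE 0.10, adjusted p = 0.0105) and stood 1.7-fold above bes1-D (log2 difference 0.73, SE 0.10, adjusted p = 0.000639), and both calls held in all 17 alternatives. Its difference between bes1-D and En2 wild type did not pass (-0.27, adjusted p = 0.136). The exons of IAA11 overlap those of AT4G28650, on the opposite strand, by 12 bases. That gene was also called higher in RAV1 over-expression against bes1-D (log2 difference 0.80, adjusted p = 0.00364), and its part in the IAA11 values was not tested.

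IAA28, whose stabilised form is known to block lateral root formation, measured 49.2, 46.3 and 49.7 FPKM in the RAV1 over-expression libraries, 24.9, 26.9 and 29.7 in the bes1-D libraries and 40.5, 29 and 36.4 in the En2 wild-type libraries. All RAV1 over-expression libraries lay above the others, and En2 wild type replicate 2 lay within the range of bes1-D. The difference from bes1-D was 1.78-fold (log2 difference 0.81, SE 0.12, adjusted p = 0.000853) and was called in all 17 alternatives. The difference from En2 wild type was smaller (log2 difference 0.46, SE 0.12, adjusted p = 0.0221) and was lost after either rescaling, without RAV1 over-expression replicates 1 or 3 and without En2 wild type replicate 2 (adjusted p from 0.0168 to 0.0778). Of the 13 root markers, 7 were higher in RAV1 over-expressing seedlings than in bes1-D (53.8%, beside 28% of all loci). Limma called 0 of them lower (0 also at an unadjusted p under 0.05). The calls of SCR, CASP1 and MYB36 were lost after either rescaling. The part of the root markers in the IAA28 difference was not tested.

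IAA31, a relative without the degron codons, was low throughout, at 3.16, 4.39 and 3.55 FPKM in the RAV1 over-expression libraries, 0.3, 0.7 and 0.81 in the bes1-D libraries and 0.79, 0.62 and 2.8 in the En2 wild-type libraries. En2 wild type replicate 3 stood apart from the other wild-type libraries, close to RAV1 over-expression replicate 1. It was called higher in RAV1 over-expressing seedlings than in En2 wild type (log2 difference 1.07, SE 0.30, adjusted p = 0.0279), but not in a fit of only these groups, nor without any 1 of the RAV1 over-expression libraries or En2 wild type replicates 1 or 2 (adjusted p from 0.00319 to 0.104). The difference from bes1-D was larger (log2 difference 1.56, SE 0.30, adjusted p = 0.00326) and held in all 16 alternatives in which the gene was tested. IAA20 and IAA30, which also lack the codons, lay between 0.16 and 3.63 FPKM and were not called as deposited.

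IAA12, or BODENLOS, is known as the repressor that partners ARF5 in the embryo. It measured 11.8, 13.2 and 10.02 FPKM in the RAV1 over-expression libraries, 13.8, 15.9 and 17.2 in the bes1-D libraries and 15.6, 16.4 and 17.4 in the En2 wild-type libraries. All RAV1 over-expression libraries were below every other library. The gene was called lower there than in En2 wild type (log2 difference -0.47, SE 0.12, adjusted p = 0.0187) and than in bes1-D (log2 difference -0.40, SE 0.12, adjusted p = 0.025). The first call was lost without RAV1 over-expression replicates 1 or 3 or En2 wild type replicates 2 or 3 (adjusted p from 0.00774 to 0.0659). The second was lost in a fit of only these groups and without RAV1 over-expression replicates 1 or 3 or bes1-D replicates 2 or 3 (from 0.00572 to 0.0864).

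IAA27 (AT4G29080, chromosome 4, 14323296 to 14325361, minus strand), also named PAP2 for its association with phytochrome, measured 13.6, 15.6 and 11.4 FPKM in the RAV1 over-expression libraries, 22.3, 20.3 and 23.7 in the bes1-D libraries and 19.8, 19.7 and 19 in the En2 wild-type libraries. RAV1 over-expression lay below both other groups, and bes1-D lay above En2 wild type without overlap. It fell in RAV1 over-expression (log2 difference -0.51, SE 0.12, adjusted p = 0.0111), and stood at 0.612 times its bes1-D level (log2 difference -0.68, SE 0.12, adjusted p = 0.00175), with both calls kept in all 17 alternatives. The bes1-D difference from En2 wild type was 0.17, adjusted p = 0.43. Its exons overlap those of AT4G29070, on the opposite strand, by 41 bases, and that gene was higher in RAV1 over-expression (log2 difference 0.56, adjusted p = 0.0177), the opposite direction to IAA27.

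IAA26 (AT3G16500, chromosome 3, 5612203 to 5614803, minus strand), or PAP1, measured 29.9, 28.7 and 28.2 FPKM in the RAV1 over-expression libraries, 22.2, 23 and 26.6 in the bes1-D libraries and 36.1, 38.4 and 39.5 in the En2 wild-type libraries. Both lines lay below every En2 wild-type library and bes1-D was lowest. In bes1-D it fell by 36.9% (log2 difference -0.65, SE 0.09, adjusted p = 0.00349), a call kept in all 17 alternatives. In RAV1 over-expression it was also called lower than in the same wild-type libraries (log2 difference -0.38, SE 0.09, adjusted p = 0.0138), but not without En2 wild type replicates 2 or 3 (adjusted p from 0.00404 to 0.0522). The difference between the lines was near the threshold (adjusted p = 0.0404) and was lost in 13 of 17 alternatives, with adjusted p from 0.0113 to 0.435.

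IAA16, whose stabilised form is known to weaken auxin and abscisic acid responses, measured 109, 117 and 95.2 FPKM in the RAV1 over-expression libraries, 83.7, 79.8 and 80.5 in the bes1-D libraries and 111, 114 and 114 in the En2 wild-type libraries. Every bes1-D library was below all others, while RAV1 over-expression and En2 wild type overlapped. It fell in bes1-D (log2 difference -0.47, SE 0.09, adjusted p = 0.0119), a call lost only without En2 wild type replicate 2 (adjusted p from 0.00727 to 0.0536 over the 17 alternatives). Against bes1-D it was higher in RAV1 over-expression (log2 difference 0.39, SE 0.09, adjusted p = 0.00736), except after trimmed-mean scaling (adjusted p from 0.00399 to 0.104).

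IAA2, a strongly auxin-induced repressor, varied widely within groups, at 99.8, 118 and 69.1 FPKM in the RAV1 over-expression libraries, 28, 34.1 and 57.4 in the bes1-D libraries and 51.8, 75.3 and 82.4 in the En2 wild-type libraries. RAV1 over-expression and bes1-D did not overlap, and En2 wild type overlapped both. As deposited only the comparison of the lines passed: RAV1 over-expression was 2.4-fold bes1-D (log2 difference 1.27, SE 0.29, adjusted p = 0.00833), in all 17 alternatives. Against En2 wild type, IAA2 had log2 differences of 0.44, adjusted p = 0.294 in RAV1 over-expression and -0.83, adjusted p = 0.113 in bes1-D, where it was called lower without bes1-D replicate 3 (-1.12, adjusted p = 0.036; from 0.036 to 0.284 over the alternatives). IAA10 measured 3.97, 4.65 and 4.59 FPKM in the RAV1 over-expression libraries, 2.34, 2.44 and 2.8 in the bes1-D libraries and 2.66, 3.01 and 3.6 in the En2 wild-type libraries. Its RAV1 over-expression libraries lay above all others. It too was called between the lines (log2 difference 0.62, SE 0.14, adjusted p = 0.00725), in all 16 alternatives that tested it, and its exons overlap an opposite-strand gene by 336 bases.

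The other 12 tested Aux/IAA genes were not called in any comparison as deposited. After either rescaling IAA8, IAA13 and IAA18 were called lower in RAV1 over-expression against bes1-D, with log2 differences after trimmed-mean scaling of -0.48, adjusted p = 0.0136 for IAA8, -0.46, adjusted p = 0.0438 for IAA13 and -0.42, adjusted p = 0.00914 for IAA18. Over the alternatives their adjusted p ran from 0.0136 to 0.19, from 0.0135 to 0.356 and from 0.00725 to 0.203 in that order. IAA1, IAA4, IAA14, IAA20 and IAA30 were each called higher in RAV1 over-expression in 1 or more alternatives that left out a library or changed the model. The 12 genes not called as deposited included IAA7 (AXR2), IAA17 (AXR3), IAA14 (SLR), IAA3 (SHY2) and IAA19 (MSG2), known from dominant mutations that stabilise the repressor. Of these named genes, only IAA14 was called in any alternative. IAA19, a common marker of auxin-driven stem growth, measured 3.77, 4.71 and 2.04 FPKM in the RAV1 over-expression libraries, 5.97, 2.86 and 4.79 in the bes1-D libraries and 3.87, 4.99 and 4.12 in the En2 wild-type libraries, with overlapping groups. Of the 3 untested genes, IAA6 was listed at 0, 0.24 and 0 FPKM in RAV1 over-expression libraries, 1.37, 0.89 and 0.67 in bes1-D and 0.13, 1.06 and 0.35 in En2 wild type. IAA5 was listed at 0.24, 0.81 and 0.26 FPKM in RAV1 over-expression libraries, 1.18, 0.95 and 1.33 in bes1-D and 0.65, 0.77 and 0.99 in En2 wild type. In both genes every RAV1 over-expression library lay below every bes1-D library, and without the filter on low values both were called lower there (log2 difference -0.86 with adjusted p = 0.0192 for IAA6, and -0.60 with adjusted p = 0.0231 for IAA5). IAA29 stayed under 0.8 FPKM in every library.

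**Figure D2:**
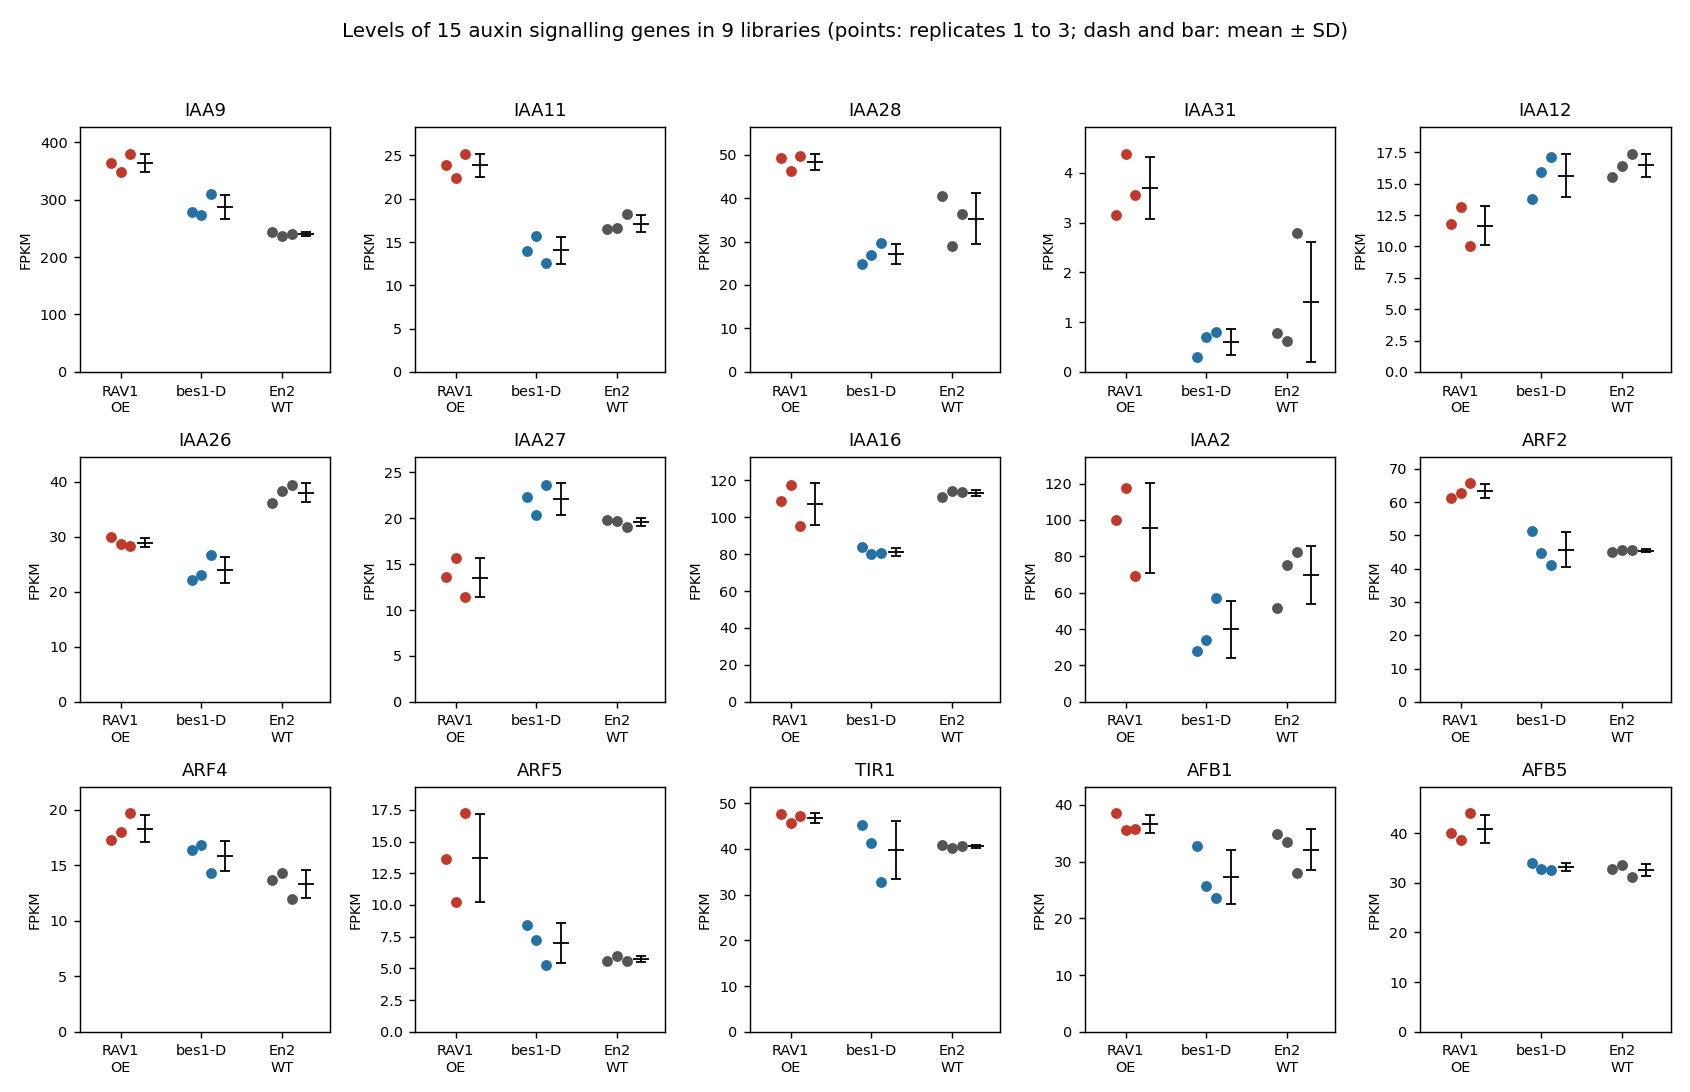
FPKM (y axes, from 0) of 15 genes in the 9 libraries, grouped as RAV1 over-expression (RAV1 OE), bes1-D and En2 wild type (En2 WT), with points for replicates 1 to 3 from left to right and the mean ± SD beside them. IAA9, ARF2 and ARF5 stand highest in RAV1 over-expression, IAA12 and IAA27 lowest there, and IAA16 lowest in bes1-D.

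Among the ARF genes all 4 calls in RAV1 over-expression were higher. Of the 10 ARFs known as repressors 3 rose (ARF1, ARF2 and ARF4), and of the 5 known as activators 1 rose (ARF5). These 4 are 26.7% of the 15 ARFs, beside 15% of all loci called higher and 8.01% called lower. The repressor ARFs summed to 161, 164 and 173 FPKM in the RAV1 over-expression libraries, 146, 136 and 120.2 in bes1-D and 144, 132 and 132 in En2 wild type, so RAV1 over-expression lay above all other libraries as deposited. After trimmed-mean scaling the sums were 151, 156 and 161 FPKM in the RAV1 over-expression libraries, 156, 143 and 126 in bes1-D and 144, 134 and 133 in En2 wild type, with bes1-D replicate 1 above RAV1 over-expression replicates 1 and 2. The activator ARFs summed to 60.8, 59.4 and 69.5 FPKM in the RAV1 over-expression libraries, 58.9, 51.9 and 45.7 in bes1-D and 56.5, 51.1 and 51.7 in En2 wild type. RAV1 over-expression was the highest again as deposited, by less than 1 FPKM over the next library. After trimmed-mean scaling the sums were 57, 56.4 and 64.7 FPKM in the RAV1 over-expression libraries, 63, 54.6 and 48 in bes1-D and 56.4, 51.8 and 52.1 in En2 wild type, with bes1-D replicate 1 above RAV1 over-expression replicates 1 and 2. In bes1-D limma called 0 of the 15 ARFs, beside 7.96% of all loci, with 1 (ARF16) at an unadjusted p under 0.05.

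ARF5 (AT1G19850, chromosome 1, 6886669 to 6891404, plus strand), or MONOPTEROS, is the activator known for setting up the embryonic root and the vasculature. It measured 13.6, 10.2 and 17.2 FPKM in the RAV1 over-expression libraries, 8.4, 7.24 and 5.28 in the bes1-D libraries and 5.59, 6 and 5.59 in the En2 wild-type libraries. Every RAV1 over-expression library was above every other library, and bes1-D spread around En2 wild type. It was 2.39-fold higher in RAV1 over-expressing seedlings than in En2 wild type (log2 difference 1.10, SE 0.19, adjusted p = 0.00312) and 1.96-fold higher than in bes1-D (log2 difference 0.87, SE 0.19, adjusted p = 0.00575). Both calls held in all 17 alternatives. Among the RAV1 over-expression libraries, ARF5, the seed markers and RAV1 itself (1064, 756 and 1426 FPKM) were all lowest in replicate 2 and highest in replicate 3. TOC1, TPL, TPR1 and GH3.3 had the same order. The summed green-tissue markers had the reverse order (22199, 26287 and 18858 FPKM). The share of all loci with either order was not counted, and the part of any of these in the ARF5 difference was not tested. Without replicate 3, the library with most seed transcripts, the log2 difference from En2 wild type was 0.93. The exons of ARF5 overlap a gene on the opposite strand, AT1G19860, by 23 bases, whose own difference from En2 wild type was not called (log2 difference -0.11, adjusted p = 0.412).

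ARF2 (AT5G62000, chromosome 5, 24910191 to 24915395, plus strand), a repressor known to limit organ growth, measured 61.4, 62.9 and 65.6 FPKM in the RAV1 over-expression libraries, 51.4, 44.6 and 41 in the bes1-D libraries and 45, 45.6 and 45.7 in the En2 wild-type libraries. RAV1 over-expression did not overlap either other group. The gene rose against En2 wild type (log2 difference 0.47, SE 0.09, adjusted p = 0.00581) and against bes1-D (log2 difference 0.47, SE 0.09, adjusted p = 0.0036), in all 17 alternatives. Between bes1-D and En2 wild type the ratio of its means was 1.01 (95% interval of the log2 difference -0.20 to 0.20).

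ARF4, which acts with ARF3 in leaf polarity, measured 17.3, 18 and 19.7 FPKM in the RAV1 over-expression libraries, 16.4, 16.8 and 14.3 in the bes1-D libraries and 13.7, 14.3 and 11.9 in the En2 wild-type libraries. RAV1 over-expression lay above all other libraries and rose against En2 wild type (log2 difference 0.43, SE 0.10, adjusted p = 0.0153), but not after quantile normalization or without RAV1 over-expression replicate 3 or En2 wild type replicate 3 (adjusted p from 0.0123 to 0.059). ARF3 itself overlapped in all groups, between 9.37 and 14.1 FPKM. ARF1, the closest partner of ARF2 in floral organ shedding, measured 24.6, 25.4 and 27.1 FPKM in the RAV1 over-expression libraries, 22.9, 22.2 and 19.8 in the bes1-D libraries and 22.6, 19.8 and 19.96 in the En2 wild-type libraries. Its call against En2 wild type was near the threshold (log2 difference 0.29, SE 0.09, adjusted p = 0.0472) and was lost in 11 of 17 alternatives, with adjusted p from 0.0302 to 0.194.

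Of the remaining ARFs, ARF9, ARF16 and ARF18 were called only between the lines as deposited, all higher in RAV1 over-expression. ARF9 measured 9.92, 11 and 10.9 FPKM in the RAV1 over-expression libraries, 9.25, 8.14 and 6.78 in the bes1-D libraries and 10.3, 8.14 and 8.48 in the En2 wild-type libraries (log2 difference 0.37, SE 0.13, adjusted p = 0.0479 against bes1-D). ARF16 measured 10.7, 8.61 and 9.55 FPKM in the RAV1 over-expression libraries, 7.05, 7.91 and 6.54 in the bes1-D libraries and 10.7, 9.27 and 9.87 in the En2 wild-type libraries (log2 difference 0.38, SE 0.12, adjusted p = 0.0281). ARF18 measured 8.48, 6.56 and 6.68 FPKM in the RAV1 over-expression libraries, 4.98, 5.43 and 4.65 in the bes1-D libraries and 5.76, 5.76 and 5.92 in the En2 wild-type libraries (log2 difference 0.45, SE 0.12, adjusted p = 0.0176). In all 3 genes the RAV1 over-expression libraries lay above the bes1-D libraries, and for ARF9 and ARF16 they overlapped En2 wild type. Each call was lost after either rescaling, with adjusted p from 0.0296 to 0.315 for ARF9, from 0.023 to 0.226 for ARF16 and from 0.013 to 0.139 for ARF18. Leaving out RAV1 over-expression replicate 1 ended all 3 calls. Against En2 wild type, ARF16 had log2 differences of -0.05 in RAV1 over-expression (adjusted p = 0.787) and -0.43 in bes1-D (adjusted p = 0.0515). Its bes1-D libraries lay below all En2 wild-type libraries, and with a filter of 5 FPKM it was called lower there (adjusted p = 0.0462). The activators ARF6, ARF7, ARF8 and ARF19 were not called in any comparison as deposited, nor was the repressor ARF11, between 1.29 and 2.6 FPKM. ARF6, which is known to bind growth genes together with BZR1, a relative of BES1, measured 15.6, 17.4 and 17.5 FPKM in the RAV1 over-expression libraries, 19.6, 17.1 and 15.6 in the bes1-D libraries and 18.4, 16.6 and 16.7 in the En2 wild-type libraries, and its intervals ran from -0.27 to 0.20 in RAV1 over-expression and from -0.22 to 0.24 in bes1-D against En2 wild type.

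ARF genes carry sites for other microRNAs, shown because they divide the family in a way unrelated to how it was chosen. Mature sequences have the seed in capitals, and sites have bases that differ from the perfect complement in capitals, G opposite U included (TAIR10.1, 5′ to 3′).
miR160a-5p: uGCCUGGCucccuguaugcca
ARF10: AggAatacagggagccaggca
ARF16: GggTTtacagggagccaggca
ARF17: tggcatGcagggagccaggca
miR167a-5p: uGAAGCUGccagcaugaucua
ARF6: GagatcaGgctggcagcttGT
ARF8: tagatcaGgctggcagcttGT
All sites lay in coding exons, with between 1 and 4 mismatches. As deposited, none of these 5 ARFs was called against En2 wild type in either line. Of all loci, 23% were called for the over-expression line and 7.96% for the mutant. Between the lines ARF16 alone of the 5 was called, beside 38.5% of all loci. With only 5 genes, these counts cannot be told from the shares over all loci. ARF10 measured 10.5, 9.69 and 12.9 FPKM in the RAV1 over-expression libraries, 9.83, 9.73 and 9.65 in the bes1-D libraries and 10.9, 8.44 and 8.97 in the En2 wild-type libraries, and ARF17 between 5.53 and 8.76 FPKM in all 9 libraries.

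**Figure D3:**
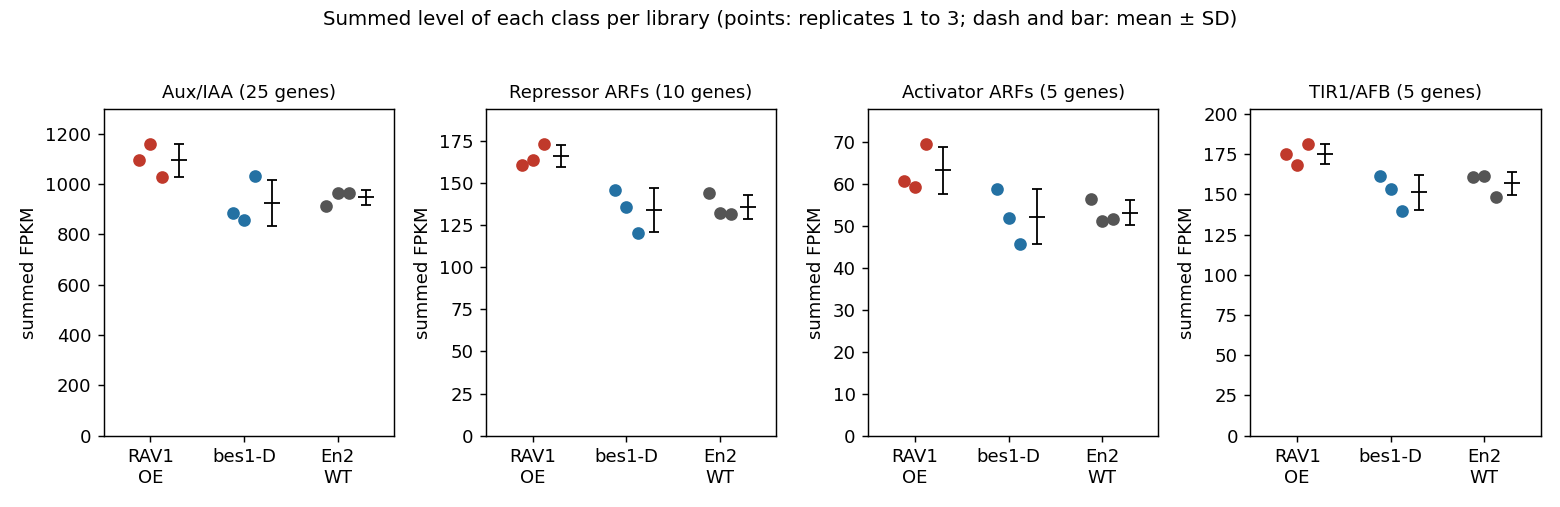
Summed FPKM (y axes, from 0) of the 25 Aux/IAA genes, the 10 repressor ARFs, the 5 activator ARFs and the 5 TIR1/AFB receptors in each library of RAV1 over-expression (RAV1 OE), bes1-D and En2 wild type (En2 WT), with points for replicates 1 to 3 and the mean ± SD beside them. As deposited, both ARF sums and the receptor sum are highest in the RAV1 over-expression libraries. For Aux/IAA bes1-D replicate 3 (1030.3 FPKM) reaches RAV1 over-expression replicate 3 (1029 FPKM). After trimmed-mean scaling, not drawn here, no class keeps RAV1 over-expression above all other libraries. The repressor ARF sums of RAV1 over-expression still lie above those of En2 wild type then.

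The 300 bases before each annotated gene start (TAIR10.1) were searched on both strands for short motifs. TGTCTC and also TGTCGG are known as auxin response elements. The motif CGTGCG, its variant CGTGTG and the E-box CACGTG are of the kind bound by BES1. The motif CAACA and the longer motif CACCTG are of the kind bound by RAV1. The E-box can share 4 bases with either of the other BES1 motifs, and such sites count for both. TGTCTC was found in 12 of the 45 windows (26.7%, beside 13% of 25134 loci) and TGTCGG in 8 (17.8%, beside 5.11%). CGTGTG was found in 7 (15.6%, beside 6.19%), CACGTG in 4 (8.89%, beside 7.52%) and CAACA in 28 (62.2%, beside 53.9%). None of the 45 windows held CGTGCG, found at 1.83% of all loci, or the longer RAV1 motif CACCTG, found at 3.26%. A match describes the letters and is not evidence of binding.

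The windows of 2 genes that kept their calls are shown, ARF5 for a gene that rose and IAA27 for one that fell in RAV1 over-expression, with the motifs in capitals and read in the direction of the gene. The ARF5 window (chr1:6886369-6886668, plus strand) holds 1 CGTGTG and no other of these motifs. The IAA27 window (chr4:14325362-14325661, minus strand) holds 1 TGTCTC, read on the opposite strand, 1 TGTCGG and 1 CAACA.
ARF5: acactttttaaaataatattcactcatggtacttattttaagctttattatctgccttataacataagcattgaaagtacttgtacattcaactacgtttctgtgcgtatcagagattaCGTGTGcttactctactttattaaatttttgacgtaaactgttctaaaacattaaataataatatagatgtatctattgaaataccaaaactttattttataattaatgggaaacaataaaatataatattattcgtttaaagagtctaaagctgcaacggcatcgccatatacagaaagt
IAA27: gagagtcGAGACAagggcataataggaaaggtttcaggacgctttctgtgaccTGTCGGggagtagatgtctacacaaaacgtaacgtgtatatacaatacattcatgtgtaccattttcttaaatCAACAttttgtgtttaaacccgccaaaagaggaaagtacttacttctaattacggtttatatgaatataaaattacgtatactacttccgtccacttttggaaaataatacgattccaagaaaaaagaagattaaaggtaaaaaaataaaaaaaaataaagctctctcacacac

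Genes that act beside these families were read from lists of auxin synthesis, transport, co-repressors, the receptor ligase, auxin oxidation and other auxin-responsive genes. TOPLESS co-repressors, which Aux/IAA proteins recruit to silence genes, were higher in RAV1 over-expression in 3 of 5 cases, beside 15% of all loci. TPR1 averaged 40.8 ± 6.35 FPKM in RAV1 over-expression, 25.4 ± 5.33 in bes1-D and 25.4 ± 1.92 in En2 wild type (SD, n = 3 each), and was higher than in En2 wild type in all 17 alternatives (log2 difference 0.66, SE 0.15, adjusted p = 0.0131). TPR2 (0.39, adjusted p = 0.0209) and TPL (0.48, adjusted p = 0.047) were called too, but each was lost in 6 or more alternatives, among them either rescaling and RAV1 over-expression without replicate 1 or replicate 3. TPR4 went the other way without a call (-0.28, adjusted p = 0.207), with its RAV1 over-expression libraries below all of En2 wild type. Against bes1-D 4 of 5 were higher, beside 28% of all loci. Among them were TPR1 (0.67, adjusted p = 0.00745), TPR2 (0.45, adjusted p = 0.00717) and TPR3 (0.72, adjusted p = 0.0104). In bes1-D limma called 0 of 5 against En2 wild type, beside 7.96% of all loci, with 1 at an unadjusted p under 0.05.

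Of 8 tested auxin synthesis genes, TAR2, an aminotransferase related to TAA1, was lower in RAV1 over-expression (log2 difference -0.59, SE 0.13, adjusted p = 0.00913), at 10.5 ± 1.58 FPKM against 16.2 ± 1.6 in En2 wild type. In bes1-D TAA1, the main enzyme of the first step, was lower (log2 difference -0.87, SE 0.12, adjusted p = 0.00325), at 10.5 ± 1.28 FPKM against 19.9 ± 2.31 in En2 wild type. YUC3 was also called lower in bes1-D (-0.52, adjusted p = 0.0358) but lost its call in 11 of 16 alternatives. Of 11 transport genes PIN3 (-0.54, adjusted p = 0.034) and LAX2 (-0.69, adjusted p = 0.0426) were called lower in RAV1 over-expression, each lost when any 1 of the En2 wild-type libraries, or replicate 1 or 3 of RAV1 over-expression, was left out. In bes1-D the influx carrier LAX3 was lower (log2 difference -0.56, SE 0.10, adjusted p = 0.00946), and PIN2, an efflux carrier of the root, was called (-0.45, adjusted p = 0.043) but lost in 11 of 17 alternatives. Of the root markers, 5 of 13 were called lower in bes1-D, beside 5.77% of all loci, and CASP1 lost its call after either rescaling. PHT1;1 lost its call in 7 of 16 alternatives and COBL9 in 1 of 17. The part of these markers in the bes1-D values was not tested.

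Between the lines, TAA1 (0.98, adjusted p = 0.000314), PIN2 (0.78, adjusted p = 0.000845) and LAX3 (0.63, adjusted p = 0.00124) were higher in RAV1 over-expression, and TAR2 (-0.88, adjusted p = 0.000774) and LAX2 (-1.08, adjusted p = 0.00404) were lower. These 5 calls held in all 17 alternatives. YUC3 was also higher (0.51, adjusted p = 0.0114), except after quantile normalization. Of the 8 genes of the receptor ligase and its activation, limma called 0 in RAV1 over-expression against En2 wild type, with 2 at an unadjusted p under 0.05, and 1 (ASK2) in bes1-D (0.33, adjusted p = 0.0367), lost in 9 of 17 alternatives (from 0.0161 to 0.142). Between the lines CUL1, the scaffold of the ligase (0.32, adjusted p = 0.0146), AXR1, which takes part in its activation (0.25, adjusted p = 0.0465), and SGT1B (0.23, adjusted p = 0.0487) were called higher, but none of the 3 was called after either rescaling. DAO2, annotated next to the auxin oxidase DAO1, was called lower in both lines, with 12.6 ± 3.19 FPKM in RAV1 over-expression, 10.9 ± 0.494 in bes1-D and 22.2 ± 3.93 in En2 wild type (-0.78, adjusted p = 0.0116 and -0.94, adjusted p = 0.0122); both calls were lost without En2 wild type replicate 2 (adjusted p up to 0.0514 and 0.0551).

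Other auxin-responsive genes moved in both directions. GH3.3, an enzyme that conjugates auxin to amino acids, measured 28.6, 19.3 and 44.3 FPKM in the RAV1 over-expression libraries, 7.72, 10.5 and 7.13 in the bes1-D libraries and 3.46, 4.46 and 6.06 in the En2 wild-type libraries, higher in RAV1 over-expressing seedlings than in either other group (2.44, adjusted p = 0.000658 against En2 wild type and 1.69, adjusted p = 0.00172 against bes1-D). GH3.5 was higher there too (0.92, adjusted p = 0.000655 and 0.91, adjusted p = 0.000302), and these calls of both genes held in all 17 alternatives. Without RAV1 over-expression replicate 3, the library highest in seed markers and RAV1, GH3.3 had a log2 difference from En2 wild type of 2.14. GH3.1, of the same family, averaged 0.883 ± 0.0603 FPKM in RAV1 over-expression, 0.507 ± 0.309 in bes1-D and 3.12 ± 0.87 in En2 wild type and was lower in both lines (-1.11, adjusted p = 0.0042 and -1.45, adjusted p = 0.00351). SAUR15, a small auxin-induced growth gene, averaged 3.3 ± 0.695 FPKM in RAV1 over-expression, 13.2 ± 1.36 in bes1-D and 4.82 ± 2.79 in En2 wild type. It was higher in bes1-D (log2 difference 1.40, SE 0.29, adjusted p = 0.0205), though not without bes1-D replicates 1 or 3 or En2 wild type replicate 1, and lower in RAV1 over-expressing seedlings than in bes1-D (log2 difference -1.74, SE 0.29, adjusted p = 0.00191). Of 12 further Aux/IAA, ARF and AFB loci outside the 45, 8 were in the table and 2 passed the filter; limma called 0 of these in any comparison, also 0 at an unadjusted p under 0.05.

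**Figure D4:**
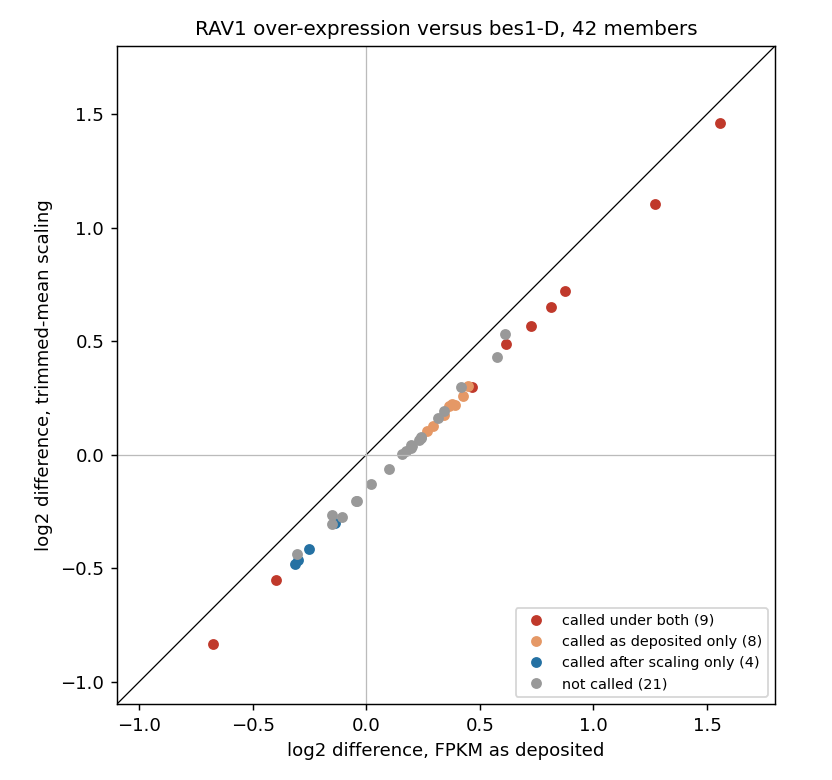
Log2 differences of the 42 genes between RAV1 over-expression and bes1-D as deposited (x axis) and after trimmed-mean scaling (y axis), with the diagonal of equal values. Every point lies below the diagonal: 9 genes were called under both, 8 as deposited only, 4 after scaling only and 21 under neither.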

How the data were processed

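RNA sequencing libraries of 9 seedling samples were analysed, 3 biological replicates in each of 3 groups, grouped by genotype labels. The deposited values are FPKM per locus, made by the authors with FastQC 0.10.1, TopHat2, Cufflinks 2.1.1 and the TAIR10 build, per the submitters' processing notes. The notes give these no role or order. Strand use and the scaling between libraries are not stated. Absolute depth is unknown because FPKM holds no counts; the values of low genes put relative depth between 82.9% and 113% of En2 wild type replicate 1.

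One limma model (version 3.58.1, R 4.3.3) was fitted to log2(FPKM + 1) over all 9 libraries, with a mean per group and the trend and robust options. Loci needed 1 FPKM in 3 or more libraries (19740 of 25199), and p-values were adjusted by Benjamini-Hochberg over all of them at 0.05. The fit was tested on simulated data. The 17 alternatives cover the pseudocount, filter, scaling, model and each library left out. Sequences came from TAIR10.1, a Columbia reference, and microRNA sites allowed 4 mismatches. Summaries used Python 3.11.15, pandas 2.3.3 and matplotlib 3.10.9.

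Every auxin signalling gene called in at least 1 comparison was given with its values in each library. Of the others, some were given by values or range, and the rest were only named or counted. The most abundant Aux/IAA genes were named. From each list of auxin pathway genes up to 3 called genes per comparison with the smallest p were named. TOC1 and the uncalled genes given in full (TIR1, IAA5, IAA6, IAA19, ARF6 and ARF10) were chosen after their values were seen. The 45 genes and all lists were chosen with earlier results of these data known.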

Additional observations from a re-analysis of the deposited data

How the results depend on the processing

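Against En2 wild type, RAV1 over-expression had 9 of the auxin signalling genes higher, 5 after quantile normalization and 4 to 10 with 1 library left out, and 3 lower, 1 to 3 with 1 library left out. In bes1-D 0 were higher, 1 after trimmed-mean scaling and 1 after quantile normalization (IAA9 in both), and 2 lower, 2 to 3 with 1 library left out. Between RAV1 over-expression and bes1-D 15 were higher, 7 after trimmed-mean scaling, 9 after quantile normalization and 10 to 15 with 1 library left out; 2 were lower, 4 without the filter on low values, 6 after either rescaling, 1 in a fit of only these groups and 1 to 4 with 1 library left out. No called auxin signalling gene changed sign in any alternative. The cause of these shifts was not tested. Same-numbered samples had correlated deviations over 0.1 in 2 of 9 pairs, so the numbers were not taken as pairs, although 6 of 9 libraries correlated best with their own number, a hint from the data and not the design. With the replicate block RAV1 over-expression had 8 genes higher and 3 lower than En2 wild type, bes1-D had 2 lower and 0 higher, and RAV1 over-expression had 13 higher and 2 lower than bes1-D. Alternatives for the pathway and marker genes, and for the class sums, were added after seeing the data. Under quantile normalization the green-tissue gene RCA stood at a log2 difference of 0.0909 in RAV1 over-expression against En2 wild type and 0.14 against bes1-D, where RBCS1A and LHCB1.3 stood at 0. With 3 libraries a group and unknown depth, small differences and genes near 1 FPKM are limited by the spread between libraries.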
